A study of Mus musculus with 18 samples.

Results

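The genes examined were those that make activated sulfate and those that transfer it. They were taken by name: *Papss1*, *Papss2* and every gene whose symbol starts with Chst, Ndst, Sult, Gal3st, Hs2st, Hs3st or Hs6st. This gave 64 genes of the 55401 in the tables: 27 named Sult, 14 Chst, 7 Hs3st, 6 Gal3st, 4 Ndst, 3 Hs6st, 2 Papss and 1 Hs2st. Of the 64, 58 are annotated as protein coding and 6 as unprocessed pseudogenes.

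Pools of thick ascending limb (TAL) tubules, each from a single adult male mouse, were profiled by RNA-seq after microdissection from liberase-treated kidneys. The cortical segment (CTAL) was sampled in 5 WT and 5 cKO pools and the medullary segment (MTAL), dissected out of the outer medulla's inner stripe, in 5 WT and 3 cKO pools. All mice carried the Cldn10 fl/fl allele. Their strain is C57BL/6J in the labels, while the methods of the study describe a background that is mostly, not wholly, C57BL/6. The cKO mice, called Cldn10 KO in the labels, also carried Cre driven by the promoter of Ksp-cadherin, a gene of the distal nephron that is not limited to the TAL, while the WT were littermates without Cre. Claudin-10 is the tight junction protein that gives the TAL its paracellular sodium permeability.

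Pools are named by their number in the labels and values are given in that order: 1, 3, 8, 10 and 22 of WT CTAL, 2, 4, 7, 9 and 21 of cKO CTAL, 11, 13, 15, 17 and 19 of WT MTAL, and 16, 18 and 20 of cKO MTAL. The total count per pool ranged from 10824299 to 62339939. Count values scaled to library size (CPM) are given on TMM-normalized library sizes and compare 1 gene between pools. *Cldn10*, the targeted gene, stood at 501 ± 83.6 CPM (SD, n = 5) in WT CTAL and 173 ± 10.8 in cKO CTAL (n = 5). It stood at 756 ± 59.8 CPM in WT MTAL (n = 5) and 215 ± 66 in cKO MTAL (n = 3), so the pools of each cKO group kept part of its RNA. The summed CPM of 10 TAL markers was 84600 to 99700 in CTAL pools of both genotypes. It was 50900 to 64100 in WT MTAL and 68900 to 79700 in cKO MTAL, so it separated the segments and, in MTAL, the genotypes. The markers did not all move alike in MTAL. *Umod* was at 23600 to 32300 CPM in WT MTAL and 40600 to 46700 in cKO MTAL. *Slc12a1* was at 14700 to 16200 CPM in WT MTAL and 11400 to 14300 in cKO MTAL, and *Ptger3* was also lower in every cKO MTAL pool. The summed CPM of 10 proximal tubule markers was 78.9 to 490 per pool. That of 6 thin limb markers was 858 to 1150 in WT MTAL, 766 to 869 in cKO MTAL, 506 to 784 in WT CTAL and 509 to 660 in cKO CTAL. Pool 1 of WT CTAL has a pool name that says WT, while the rest of its title and its genotype label say Cldn10 KO. It was used as WT by its pool name, and held 446 CPM of *Cldn10*. The X-inactivation transcript *Xist* was at 6.5 to 8.91 CPM in 7 of the 18 pools and at 0.736 or less in the other pools, while the Y-linked *Ddx3y* was at 23.6 to 39.4 CPM in every pool. Those 7 pools were 2 of 5 WT CTAL, 1 of 5 cKO CTAL, 4 of 5 WT MTAL and 0 of 3 cKO MTAL, so a comparison of genotypes in MTAL without them keeps 1 WT pool. The summed CPM of 7 tubular injury markers was 2000 to 8170 in cKO MTAL and 1060 to 1280 in WT MTAL, and 1700 to 4530 in cKO CTAL against 1390 to 1630 in WT CTAL. *Spp1* alone made up most of this sum, at 1920 to 7830 CPM in cKO MTAL and 1030 to 1240 in WT MTAL. *Vcam1*, *Cdkn1a* and *Havcr1* overlapped between the genotypes in each segment. The summed CPM of 8 endothelial markers was 171 to 275 in cKO MTAL against 288 to 458 in WT MTAL. The part of these differences in the results below was not tested, and in bulk samples fewer cells of a type cannot be told apart from less RNA per cell.

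Cells cannot use inorganic sulfate directly. PAPS synthases join it to ATP and phosphorylate the product to PAPS, the sulfate donor of all sulfotransferases. Cytosolic sulfotransferases (Sult) pass the sulfate to hormones, phenols and drugs, while the enzymes of the Golgi pass it to heparan sulfate (Ndst, Hs2st, Hs3st, Hs6st), to chondroitin sulfate and other glycans (Chst) and to glycolipids (Gal3st). Each transfer leaves PAP, which a phosphatase breaks down. The kidney is rich in sulfatide, the product of *Gal3st1*, and also reabsorbs sulfate in its proximal tubule.

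Levels were compared between genes as TPM, which are scaled by transcript length. *Hs6st1*, which adds sulfate to the 6-O position of heparan sulfate, was the most abundant member with a mean of 175 TPM over the 18 pools and 132 to 219 TPM in single pools. It was followed by *Sult1d1*, a cytosolic enzyme, at 124 TPM and by *Ndst1*, which exchanges the acetyl group of heparan glucosamine for sulfate, at 91 TPM. *Gal3st1* stood at 75.4 TPM, *Papss1* at 66.3, *Papss2* at 42.6, *Sult1c2* at 36.1 and *Sult1a1* at 25.7. The ranges over pools of neighbours in this order overlapped: 72.2 to 119 TPM for *Ndst1* against 62.7 to 88.6 for *Gal3st1*, and 38.7 to 96.1 for *Papss1* against 20 to 81.1 for *Papss2*. *Chst11*, a chondroitin 4-O-sulfotransferase, and *Chst9* were the most abundant Chst genes at 15.2 and 12.9 TPM. Of all 64 members, 25 reached 1 TPM in a pool, 24 had counts but stayed under 1 CPM in every pool, and 14 had no count in any pool. Among the 14 were the 6 pseudogenes, all members of the Sult2a or Sult1c2 loci. In total 21 members passed the filter on low counts in at least 1 fit and 18 passed it in all 5.

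**Figure D1:**
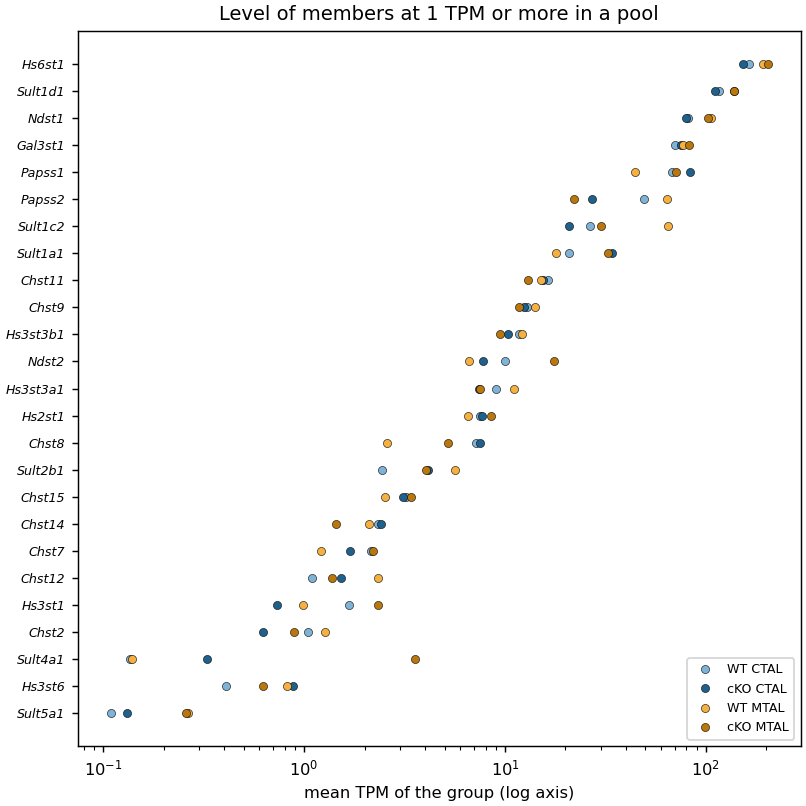
Mean TPM of each group (log axis) for the 25 members that reached 1 TPM in a pool, ordered by the mean over all pools. The 4 groups lie close together for *Hs6st1*, *Sult1d1* and *Gal3st1*, while WT MTAL stands to the right for *Sult1c2* and both cKO groups stand to the left for *Papss2*.

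The summed TPM of each role is given without a test. The heparan sulfate genes together stood at 286 ± 27.4 TPM in WT CTAL, 267 ± 13.6 in cKO CTAL, 337 ± 16.5 in WT MTAL and 352 ± 15.1 in cKO MTAL, with overlap between the WT segments and none between the cKO segments. The cytosolic sulfotransferases stood at 166 ± 19.9, 171 ± 31.8, 226 ± 46.7 and 209 ± 44.9 TPM in the same order. The 2 PAPS synthases stood at 117 ± 8.07, 111 ± 10.6, 108 ± 13 and 92.9 ± 17.5 TPM. The ranges of cKO and WT pools overlapped for the PAPS synthases in each segment as TPM. As CPM, which are not scaled by length, they did not: the sum was 207 to 239 in cKO CTAL against 243 to 281 in WT CTAL, and 159 to 206 in cKO MTAL against 227 to 343 in WT MTAL. For the heparan sulfate genes in MTAL and the cytosolic enzymes in CTAL the direction between genotypes turned with the unit, from a log2 difference of 0.06 and 0.04 as TPM to -0.19 and -0.14 as CPM. For all genes tested the median log2 difference between cKO and WT was 0.13 in CTAL and 0.19 in MTAL on the log2(TPM + 1) scale and 0 in both with TMM.

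Genotype was compared within each segment, segment within each genotype, and the difference between the genotype effects by an interaction. The 4 pairwise comparisons share groups, so they are not independent of each other. A gene passed at an adjusted p under 0.05 (edgeR quasi-likelihood test, Benjamini-Hochberg over all genes tested). Between cKO CTAL and WT CTAL 1.22% of 11702 genes passed, 0.658% higher and 0.564% lower in cKO, and 0.470% also differed by 1 or more on the log2 scale, the fold threshold of the study. Of the 18 members tested there, 1 was lower, beyond the fold threshold, and 0 were higher. Between cKO MTAL and WT MTAL 7.01% of 12060 genes passed, 4.44% higher and 2.57% lower, and 3.74% with the fold threshold. Of 20 members tested, 1 was higher and 3 were lower, 2 of them beyond the fold threshold. Between WT MTAL and WT CTAL 6.87% of 11650 genes passed, 2.76% higher and 4.10% lower in MTAL, and 2.32% with the fold threshold. Of 18 members, 3 were higher and 2 lower, with 2 beyond the fold threshold. Between cKO MTAL and cKO CTAL 1.75% of 12044 genes passed, 1.12% higher and 0.631% lower, and 0.938% with the fold threshold. Of 18 members, 2 were higher and 0 lower. In these 4 comparisons 9, 8, 8 and 4 members had an unadjusted p under 0.05 (edgeR), and the share of all genes that did is not given here. The genotype effect differed between segments for 0.286% of 12586 genes, and for 0 of 21 members. For that difference 3 members had an unadjusted p under 0.05, and both the edgeR and the DESeq2 likelihood ratio tests passed 2, *Papss2* and *Sult1c2*, while limma on log2(TPM + 1) passed 0. The median log2 fold change of the members tested was -0.19, -0.23, 0.15 and 0.07 in the 4 comparisons, against 0, 0, 0.02 and 0.03 for all genes.

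**Figure D2:**
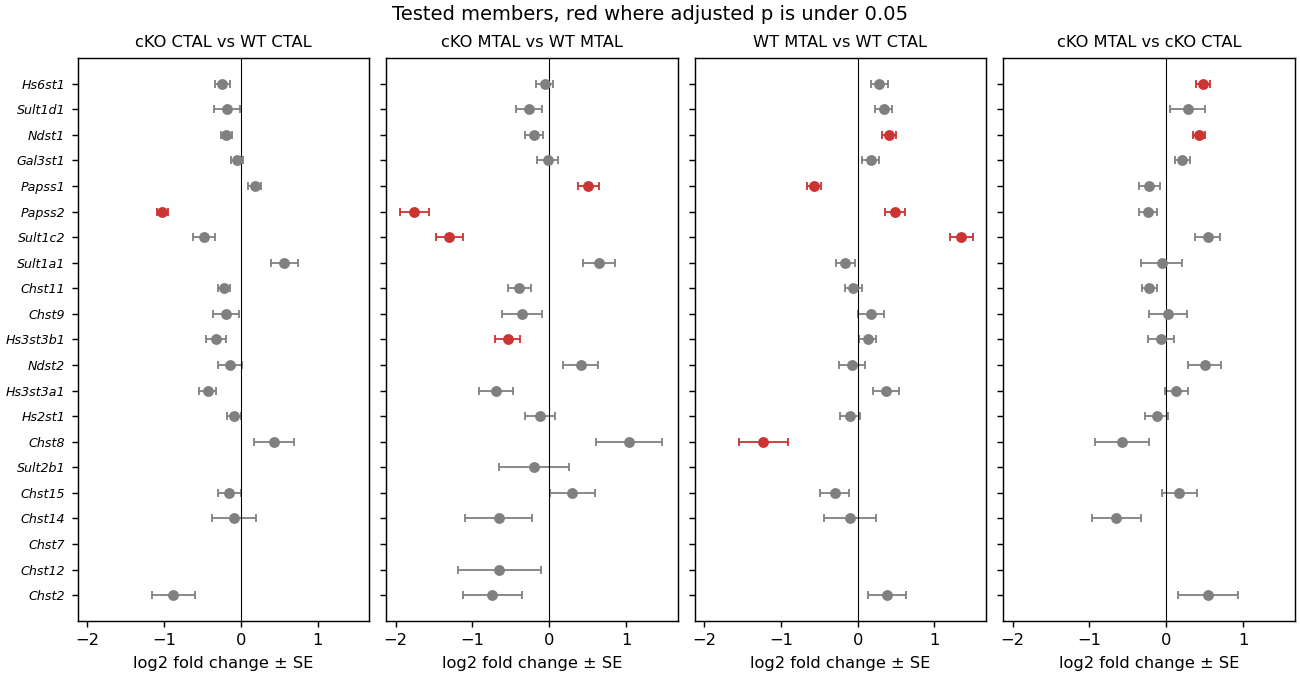
Log2 fold change with its standard error for every member tested, ordered by mean TPM, in the 4 pairwise comparisons. Points with an adjusted p under 0.05 are red. *Papss2* is the single red point for genotype in CTAL and the leftmost point for genotype in MTAL, followed by *Sult1c2*.

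The 2 PAPS synthases are shown with the sequences before their start sites, because *Papss2* was less expressed in cKO in each segment while *Papss1* was not. *Papss1* lies on chromosome 3 from 131564768 to 131643671 and *Papss2* on chromosome 19 from 32595790 to 32667187, both on the forward strand (GRCm38, GENCODE). The 250 bases before each start, from RefSeq (GRCm38.p6), were searched on both strands for the GC box (GGGCGG), the CCAAT box (CCAAT), the TATA box (TATAAA) and the E box (CACGTG), which 32.7%, 33.8%, 12.4% and 6.02% of 32851 such windows hold. Matches are in capitals.
Papss1, upstream start, chr3:131564518-131564767, forward strand: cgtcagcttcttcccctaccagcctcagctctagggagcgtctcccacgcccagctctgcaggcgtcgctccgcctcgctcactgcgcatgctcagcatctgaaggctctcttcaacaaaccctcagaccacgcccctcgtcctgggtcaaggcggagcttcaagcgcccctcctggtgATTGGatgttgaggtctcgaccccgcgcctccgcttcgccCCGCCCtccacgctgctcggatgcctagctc
Papss1, downstream start, chr3:131565782-131566031, forward strand: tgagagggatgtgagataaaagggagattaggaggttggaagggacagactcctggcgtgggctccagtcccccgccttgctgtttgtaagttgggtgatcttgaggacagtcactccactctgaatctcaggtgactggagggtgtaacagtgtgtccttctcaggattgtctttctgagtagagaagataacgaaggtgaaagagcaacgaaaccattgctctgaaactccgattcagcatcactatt
Papss2, upstream start, chr19:32595465-32595714, forward strand: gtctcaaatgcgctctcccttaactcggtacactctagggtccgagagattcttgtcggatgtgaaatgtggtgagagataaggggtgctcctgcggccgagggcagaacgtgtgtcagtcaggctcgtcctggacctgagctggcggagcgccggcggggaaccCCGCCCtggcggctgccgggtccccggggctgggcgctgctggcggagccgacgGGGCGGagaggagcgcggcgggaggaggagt
Papss2, downstream start, chr19:32619755-32620004, forward strand: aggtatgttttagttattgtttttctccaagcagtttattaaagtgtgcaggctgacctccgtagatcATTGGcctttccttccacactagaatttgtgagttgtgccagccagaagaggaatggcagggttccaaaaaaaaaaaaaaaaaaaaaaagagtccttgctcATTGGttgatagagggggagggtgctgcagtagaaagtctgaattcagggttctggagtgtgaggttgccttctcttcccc
The upstream *Papss1* window held 1 GC box, 31 bases before the start, and 1 CCAAT box. The upstream *Papss2* window held 2 GC boxes and a GC content of 67.6%, close to the 65.2% of the upstream *Papss1* window and above the upper quartile of 61.2% for all windows. The downstream windows lie within their genes. That of *Papss1* had a GC content of 48.8% and none of the 4 boxes. That of *Papss2* had a GC content of 43.2%, no GC box and 2 CCAAT boxes. No window held a TATA box or an E box. The tables give 1 value per gene, so the share of RNA from each start was not measured.

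*Papss2* encodes the PAPS synthase whose loss impairs cartilage growth in humans and mice. In WT CTAL it stood at 118, 129, 131, 131 and 116 CPM, and in cKO CTAL at 56.9, 64.1, 63.5, 66.8 and 58.2 CPM. Every cKO pool was below every WT pool. *Papss2* was less expressed in cKO CTAL with a log2 fold change of -1.02 (SE 0.07, adjusted p = 5.57e-06). This fall was known when the genes were chosen. It passed under all 20 alternatives, with an adjusted p of 0.0286 when pool 1 of WT CTAL was counted as cKO and 0.00016 without the pools that hold *Xist*.

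In WT MTAL *Papss2* stood at 159, 136, 187, 247 and 150 CPM, and in cKO MTAL at 57.2, 45.6 and 47.2 CPM. The lowest WT pool was more than the highest cKO pool, with pool 17 of WT MTAL the highest of all. *Papss2* was less expressed in cKO MTAL with a log2 fold change of -1.76 (SE 0.19, adjusted p = 3.69e-05). Without the pools that hold *Xist* the log2 fold change was -1.41 (adjusted p = 0.292) with 1 WT pool left, where 0 of 11445 genes passed with edgeR and 622 had an unadjusted p under 0.05. The difference between the genotype effects of MTAL and CTAL, -0.75 on the log2 scale (SE 0.19, adjusted p = 0.0741), did not pass. Within WT, *Papss2* was higher in MTAL pools than in CTAL pools by 0.48 (SE 0.13, adjusted p = 0.0338), and the pools did not overlap. This last call was lost when any of 7 of the 10 pools was left out (WT CTAL 1, 3, 8, 10 or 22, WT MTAL 15 or 17, adjusted p up to 0.0898), and the difference was 0.10 without the pools that hold *Xist*. Between cKO MTAL and cKO CTAL the log2 difference was -0.24 (adjusted p = 0.335).

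*Papss1*, the other PAPS synthase, which is broadly expressed, stood at 152, 119, 150, 129 and 127 CPM in WT CTAL and at 150, 143, 148, 152 and 181 CPM in cKO CTAL. Its groups overlapped in CTAL, with a log2 difference of 0.18 (SE 0.09, adjusted p = 0.463). It stood at 95.1, 91.2, 91.5, 96.6 and 83.5 CPM in WT MTAL and at 102, 118 and 159 CPM in cKO MTAL. Its 3 cKO MTAL pools were above its 5 WT MTAL pools, and pool 20 was the highest. *Papss1* was more expressed in cKO MTAL by 0.51 (SE 0.14, adjusted p = 0.0326). The call was lost in 6 of 8 fits that left out a pool (any of the WT MTAL pools, or cKO MTAL 20, without which the log2 fold change was 0.32 and the adjusted p 0.165). Without the pools that hold *Xist* it was 0.50 (adjusted p = 0.931, 1 WT pool left). Between the WT segments *Papss1* was less expressed in MTAL with a log2 fold change of -0.57 (SE 0.09, adjusted p = 0.000496), and no pool of WT MTAL reached the lowest pool of WT CTAL. In cKO the log2 difference between segments was -0.22 (adjusted p = 0.459).

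Set against each other, *Papss2* made up 42.1% ± 3.46 (SD, n = 5) of the summed TPM of the 2 synthases in WT CTAL and 58.7% ± 4.82 (n = 5) in WT MTAL. In cKO it made up 24.4% ± 2.62 (n = 5) in CTAL and 24.3% ± 5.34 (n = 3) in MTAL. The 8 cKO pools ranged from 19.7% to 30.2% and the 10 WT pools from 37.1% to 65.3%.

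**Figure D3:**
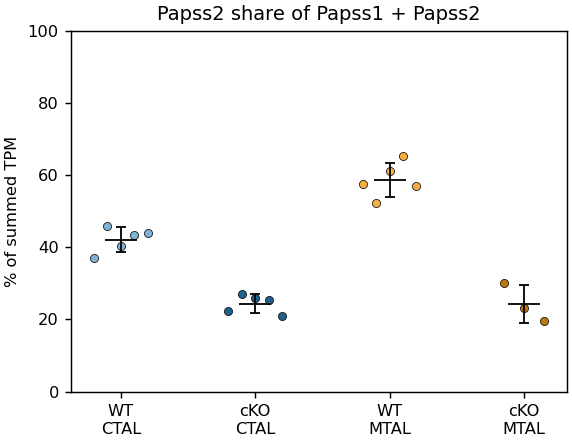
Percent of the summed TPM of *Papss1* and *Papss2* that was *Papss2*, by pool, with the mean and SD of each group. The cKO CTAL and cKO MTAL pools sit at 19.7% to 30.2%, below all WT pools.

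Among the cytosolic sulfotransferases *Sult1c2* differed by segment and, in MTAL, by genotype. It stood at 28.8, 38.3, 27.6, 49 and 30.4 CPM in WT CTAL and at 88.7, 108, 90.1, 81.5 and 77.4 CPM in WT MTAL. Each WT MTAL pool was above each WT CTAL pool, and *Sult1c2* was higher in MTAL by 1.35 (SE 0.15, adjusted p = 2.49e-05). In cKO MTAL it stood at 45.1, 33.4 and 26.1 CPM, below every WT MTAL pool, and it was less expressed than in WT MTAL with a log2 fold change of -1.30 (SE 0.18, adjusted p = 0.000447). Without the pools that hold *Xist* this value was -1.59 (adjusted p = 0.329, 1 WT pool left). In cKO CTAL *Sult1c2* stood at 25.4, 24.1, 25, 25.3 and 26.2 CPM, below all WT CTAL pools, but the log2 difference of -0.48 (SE 0.14, adjusted p = 0.151) did not pass. Nor did the difference between the 2 genotype effects, -0.85 (SE 0.24, adjusted p = 0.0948), or the difference of 0.54 between the cKO segments (adjusted p = 0.11). *Sult1c2* lies on chromosome 17 from 53829637 to 53846339 on the reverse strand, and no stretch of 75 bases of its transcript was shared with another gene. Its 2 pseudogenes had no counts.

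*Sult1a1*, a phenol sulfotransferase, stood at 20.3, 18.1, 18.8, 19.4 and 19.4 CPM in WT CTAL and at 45.3, 31.7, 23.8, 20.3 and 22.1 CPM in cKO CTAL. It stood at 17.9, 17.7, 17.5, 16.9 and 16.7 CPM in WT MTAL and at 22.8, 37 and 19.2 CPM in cKO MTAL. The cKO and WT pools did not overlap in either segment, and the WT pools lay close together while the cKO pools were spread. The log2 differences of 0.57 in CTAL (SE 0.18, adjusted p = 0.19) and 0.65 in MTAL (SE 0.21, adjusted p = 0.0774) did not pass. Under the alternatives the MTAL difference passed in 4 of 17 and the CTAL difference in 0 of 20. The highest pools, cKO CTAL 2 and cKO MTAL 18, also held the highest summed CPM of the tubular injury markers (4530 and 8170) and of the proximal tubule markers (428 and 490) in their groups. Pool 4 of cKO CTAL, the next highest of its group at 31.7 CPM, held the lowest sums of its group (1700 and 78.9). The part of these markers in *Sult1a1* was not tested. Of its stretches of 75 bases, 3.37% were shared with the gene model *Gm6939*, and *Sgf29* overlaps it on the other strand.

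*Sult1d1*, the most abundant cytosolic enzyme, stood at 131, 160, 133, 152 and 106 CPM in WT CTAL and at 185, 93.9, 121, 115 and 90.7 CPM in cKO CTAL. It stood at 165, 171, 207, 173 and 151 CPM in WT MTAL and at 153, 175 and 92 CPM in cKO MTAL. Its cKO pools overlapped its WT pools in each segment and it passed in no comparison. *Sult2b1*, a sterol sulfotransferase, stayed at 4.77 CPM or less. *Sult4a1*, a member known from the brain, was too low for the filter, since 2 pools reached 3 CPM, and is named because of its values. It stood at 1.2, 7.5 and 6.2 CPM in cKO MTAL and at 0.674 CPM or less in all 15 other pools. With no filter on low counts the log2 fold change between cKO MTAL and WT MTAL was 4.38 (SE 0.65, adjusted p = 5.3e-06). The other 22 Sult genes did not reach 3 CPM in any pool.

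**Figure D4:**
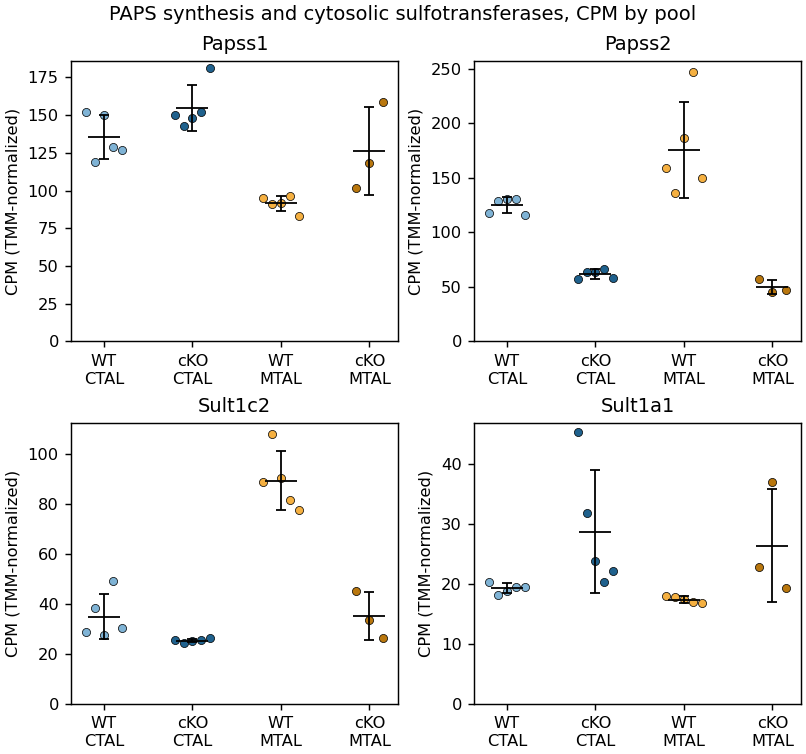
CPM of *Papss1*, *Papss2*, *Sult1c2* and *Sult1a1* in each pool, with the mean and SD of each group. The cKO pools of *Papss2* lie between 45.6 and 66.8 CPM in both segments, and *Sult1c2* reaches 77.4 CPM or more only in WT MTAL.

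The heparan sulfate enzymes, which shape the binding sites of growth factors on proteoglycans, had 6 of their 15 genes tested. With edgeR 0 of the 6 passed between cKO and WT in CTAL, where 1.22% of all genes did. All 6 were lower in cKO there (log2 difference -0.43 to -0.09), and 4 had an unadjusted p under 0.05. In MTAL 1 passed (7.01% of all genes did) and 2 had an unadjusted p under 0.05. Between the segments 1 passed in WT (6.87%) and 2 in cKO (1.75%). *Ndst1* stood at 331, 388, 382, 370 and 392 CPM in WT CTAL and at 450, 500, 427, 564 and 562 CPM in WT MTAL. Every WT MTAL pool was above every WT CTAL pool, and *Ndst1* was more expressed in MTAL by 0.41 (SE 0.09, adjusted p = 0.0077). In cKO it stood at 340, 330, 323, 320 and 329 CPM in CTAL and at 414, 463 and 388 CPM in MTAL, again without overlap and with a log2 fold change of 0.43 (SE 0.08, adjusted p = 0.0258). Without the pools that hold *Xist* the WT value was 0.46 (adjusted p = 0.0875). The log2 differences between genotypes were -0.19 in CTAL (adjusted p = 0.24) and -0.20 in MTAL (adjusted p = 0.347). *Rps14*, a ribosomal protein gene, overlaps *Ndst1* on the other strand, and whether strand was used in counting is not given in the sources used here.

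*Hs6st1* stood at 466, 403, 420, 388 and 371 CPM in cKO CTAL and at 545, 566 and 523 CPM in cKO MTAL. The pools did not overlap and *Hs6st1* was more expressed in cKO MTAL by 0.48 (SE 0.09, adjusted p = 0.0243). In WT it stood at 426, 479, 448, 424 and 623 CPM in CTAL and at 635, 506, 647, 609 and 544 CPM in MTAL, where the groups overlapped through pool 22 of WT CTAL and the log2 difference was 0.28 (SE 0.11, adjusted p = 0.154). Without that pool it was 0.39 (adjusted p = 0.0187). The cKO calls of *Ndst1* and *Hs6st1* were each lost in 5 of 8 fits that left out a pool (cKO CTAL 4, 7, 9 or 21, or cKO MTAL 16), with an adjusted p of up to 0.114 and 0.103.

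*Hs3st3b1*, which adds the rare 3-O-sulfate, stood at 45, 43.6, 54.4, 48.9 and 45.7 CPM in WT MTAL and at 35, 29.5 and 30.4 CPM in cKO MTAL. The groups did not overlap and *Hs3st3b1* was less expressed in cKO MTAL with a log2 fold change of -0.54 (SE 0.16, adjusted p = 0.0486). The call was lost whichever of the 8 pools was left out (adjusted p 0.0529 to 0.125), and without the pools that hold *Xist* the value was -0.43 (adjusted p = 0.931, 1 WT pool left). In CTAL it stood at 42.2, 50.6, 36.5, 41.9 and 45.6 CPM in WT and at 27.9, 43.6, 38.7, 29.9 and 35 CPM in cKO, with overlap and a log2 difference of -0.32 (adjusted p = 0.325). Its close relative *Hs3st3a1* stood at 34.3 ± 9.18 CPM in WT MTAL (n = 5) and 20.6 ± 1.31 in cKO MTAL (n = 3), a log2 difference of -0.69 (SE 0.22, adjusted p = 0.0673). In CTAL *Hs3st3a1* stood at 26.5 ± 3.19 in WT and 19.8 ± 2 in cKO (n = 5 each), a log2 difference of -0.43 (SE 0.11, adjusted p = 0.0929). The genotype difference of *Hs3st3a1* passed under 6 of 17 alternatives in MTAL and 2 of 20 in CTAL. *Hs3st3b1* and *Hs3st3a1* share 7.05% and 8.82% of their 75-base stretches, so reads there could have been split between them. *Ndst2* and *Hs2st1*, the 2-O-sulfotransferase, passed in no comparison.

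Of the 14 Chst genes, 8 were tested in at least 1 fit and 1 passed in any. That call was between the WT segments, where 6 Chst genes were tested and 6.87% of all genes passed. *Chst8*, which sulfates GalNAc on the glycans of pituitary hormones, stood at 11, 8.28, 10.2, 8.27 and 3.13 CPM in WT CTAL and at 4.11, 2.47, 4.73, 2.9 and 3.41 CPM in WT MTAL. The groups overlapped through pool 22 of WT CTAL, and *Chst8* was less expressed in WT MTAL with a log2 fold change of -1.23 (SE 0.32, adjusted p = 0.0254). The call was lost in 6 of 10 fits that left out a pool (WT CTAL 1, 8 or 10, or WT MTAL 13, 17 or 19, adjusted p up to 0.0812). In cKO it stood at 10.2, 9.92, 14.5, 11.2 and 9.75 CPM in CTAL and at 4.37, 4.29 and 12.3 CPM in MTAL, a log2 difference of -0.58 (SE 0.35, adjusted p = 0.428). Pool 20, the highest of cKO MTAL, also held the most principal cell (936 CPM) and intercalated cell markers (244 CPM) of its group, among other lists. Pool 7, the highest of cKO CTAL, held 100 CPM of principal cell markers, where its group ranged from 88.3 to 303. The part of these markers was not tested. *Chst11* stood at 72.2 ± 6.04 CPM in WT CTAL, 62.5 ± 3.98 in cKO CTAL, 69.5 ± 10.6 in WT MTAL and 51.1 ± 3.83 in cKO MTAL, and its log2 differences between genotypes, -0.22 and -0.39, did not pass (adjusted p = 0.255 and 0.116). *Chst2*, which acts on N-acetylglucosamine, had the lowest value of the members that did not pass in CTAL, -0.88 (SE 0.28, adjusted p = 0.174), at 3.02 ± 1.08 CPM in cKO and 5.53 ± 1.77 in WT.

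*Gal3st1*, the sulfatide synthase, stood at 90, 113, 89, 103 and 104 CPM in WT CTAL and at 89, 101, 103, 97.2 and 96 CPM in cKO CTAL. It stood at 132, 108, 93.5, 95.9 and 135 CPM in WT MTAL and at 115, 101 and 106 CPM in cKO MTAL. The pools of cKO and WT overlapped in each segment and it passed in no comparison. The other 5 Gal3st genes stayed at 0.554 CPM or less.

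**Figure D5:**
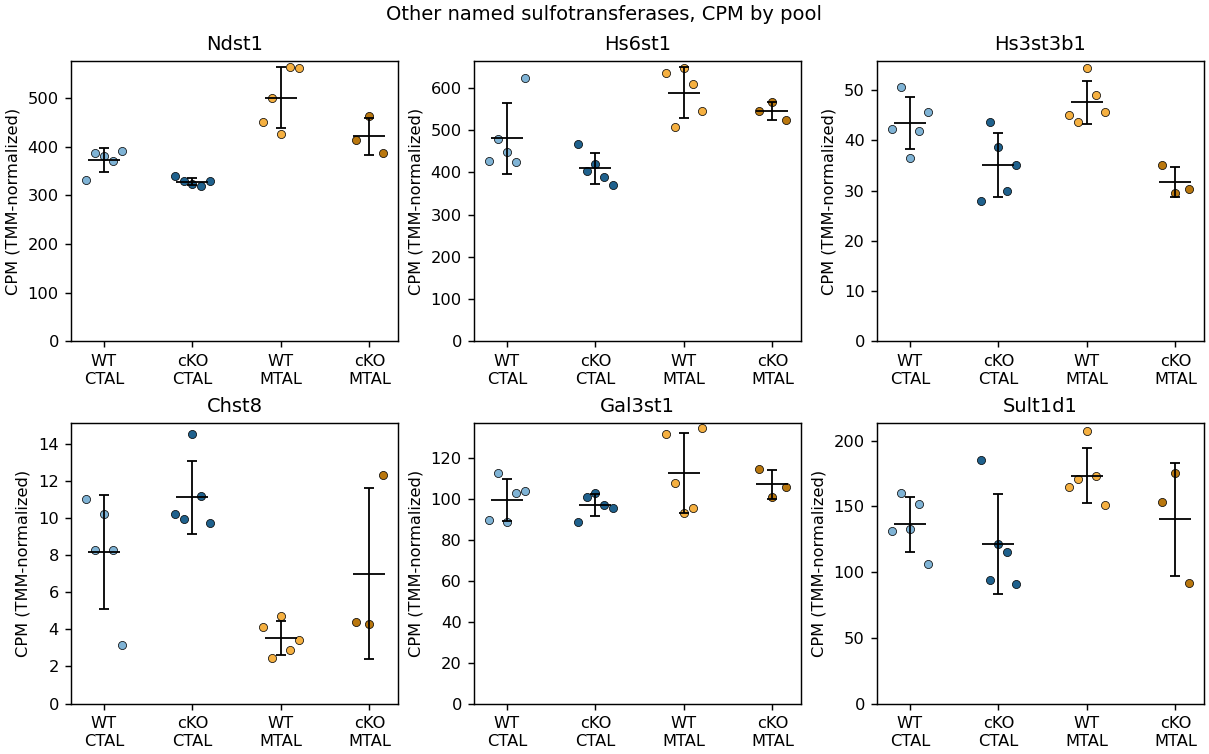
CPM of *Ndst1*, *Hs6st1*, *Hs3st3b1*, *Chst8*, *Gal3st1* and *Sult1d1* in each pool, with the mean and SD of each group. The WT MTAL pools of *Ndst1* lie at 427 CPM or more and the WT CTAL pools at 392 or less, while the groups of *Gal3st1* overlap.

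The genes around the sulfotransferases were counted in 8 lists with 89 genes, 87 of them in the tables. Between cKO MTAL and WT MTAL 5 of 63 tested were higher and 4 lower, where 4.44% and 2.57% of all genes were. Between cKO CTAL and WT CTAL 1 of 62 was higher and 1 lower, where 0.658% and 0.564% of all genes were. None of the 5 sulfate and PAPS transporters tested passed in either (edgeR, 1 with an unadjusted p under 0.05 in CTAL and 0 in MTAL). *Bpnt1*, which breaks down PAP and is named after its values were seen, stood at 593 ± 54.6 CPM in WT MTAL and 394 ± 42 in cKO MTAL, and was less expressed in cKO with a log2 fold change of -0.54 (SE 0.12, adjusted p = 0.0141). It stood at 424 ± 66.9 CPM in WT CTAL, below WT MTAL by a log2 difference of 0.48 (SE 0.11, adjusted p = 0.00939).

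Of the enzymes that remove sulfate, *Sulf2*, which strips 6-O-sulfate from heparan sulfate outside the cell, passed in all 4 pairwise comparisons. It stood at 85.7 ± 18.2 CPM in WT CTAL, 131 ± 18.9 in cKO CTAL, 21 ± 6.21 in WT MTAL and 56.3 ± 2.27 in cKO MTAL. It was more expressed in cKO, by 0.61 in CTAL (SE 0.14, adjusted p = 0.0472), where the groups overlapped, and by 1.47 in MTAL (SE 0.21, adjusted p = 0.000427). It was less expressed in MTAL than in CTAL, with a log2 fold change of -2.04 in WT (SE 0.19, adjusted p = 3.94e-06) and -1.15 in cKO (SE 0.13, adjusted p = 0.000554). *Arsa*, the sulfatase of sulfatide, was less expressed in cKO CTAL at 36.4 ± 2.65 against 50 ± 7.24 CPM, a log2 fold change of -0.47 (SE 0.10, adjusted p = 0.0397).

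Proteoglycan core proteins carry the chains that these enzymes modify. Of 16 tested in MTAL, 4 were higher and 3 lower in cKO, where 4.44% and 2.57% of all genes were. The falls were *Srgn*, from immune cells and endothelium, with a log2 fold change of -1.28 (adjusted p = 0.0239), *Tgfbr3*, a TGF-beta coreceptor, with -1.02 (adjusted p = 0.00142), and *Sdc2* with -0.69 (adjusted p = 0.0134). The largest rises were *Gpc3*, a glypican, (0.93, adjusted p = 0.0206) and the collagen *Col18a1* (0.88, adjusted p = 0.00778), the latter with overlap between the groups. In CTAL, where 1.22% of all genes passed, 0 of 15 did (edgeR, 6 with an unadjusted p under 0.05). Of the genes that build the chains 0 of 16 passed for genotype in either segment, against 1.22% of all genes in CTAL and 7.01% in MTAL (edgeR, 1 with an unadjusted p under 0.05 in CTAL and 2 in MTAL). Of 3 genes of sulfatide synthesis and 9 of sulfur amino acid breakdown 0 passed in either (edgeR, 1 and 0 with an unadjusted p under 0.05 in each segment). Between the WT segments 6 of the 63 were higher and 4 lower in MTAL, where 2.76% and 4.10% of all genes were. After *Sulf2*, the largest were *Gpc5* (1.57, adjusted p = 0.00377), *Arsk*, a lysosomal sulfatase, (0.76, adjusted p = 0.00795) and *Tgfbr3* (0.68, adjusted p = 8e-05) higher and *Gpc3* (-1.14, adjusted p = 0.000603) and *Xylt1*, which starts the chain (-1.02, adjusted p = 0.00448), lower. Between the cKO segments 1 of 64 was higher in MTAL, the basement membrane core protein *Hspg2* (0.66, adjusted p = 0.0184), and 1 lower, *Sulf2*, where 1.12% and 0.631% of all genes were.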

How the data were processed

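RNA was sequenced from pools of microdissected tubules after poly-A selection with a strand-specific paired-end kit. Reads were aligned and quantified by the authors with DRAGEN on mm10 with a GENCODE annotation. Trimming is given as fastp in the methods and as Trimmomatic in the submitters' processing notes, and the treatment of strand and of reads with several matches is not given in the sources used here. The authors deposited a table of estimated counts and a table of TPM. Of all genes in the count table, detected or not, 6.26% to 9.53% per pool carried decimals. The estimated counts were rounded. The authors left out 3 cKO pools, which were not analysed here.

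Members and lists were chosen with earlier results of these data known. Genes at 3 CPM or more in at least 5 pools (3 where cKO MTAL or the interaction was involved) were tested with edgeR 4.0.16 (R 4.3.3), TMM factors and the quasi-likelihood F test, fitted on the groups compared, with Benjamini-Hochberg adjustment over all genes tested. The study's own test, the DESeq2 likelihood ratio test (DESeq2 1.42.0), limma 3.58.1 on log2(TPM + 1), other scalings, no filter, 1 fit of all pools, a term for *Xist* and leaving out each pool were alternatives. Leaving out the pools that hold *Xist* was added after seeing the data. Standard errors are the log2 fold change divided by the root of F. Named with values are *Papss1*, *Papss2*, every member that passed and the 8 highest by mean TPM, others by range, and in the lists at most the 3 largest rises and falls that passed. The fits were tested on simulated data. Of the 64 members all matched GENCODE vM21 (GRCm38) by Ensembl ID, and 48 have a RefSeq promoter entry. Replicates differed beyond sampling noise, with 14.8 to 132 for the chi-square per gene. By the methods of the study, each pool, whether CTAL or MTAL, came from a different mouse.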

Additional observations from a re-analysis of the deposited data

Results flagged for a closer look

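The 10 named members were examined for a pool far from the others in the groups of 5 pools, 30 groups in all, and 2 groups had such a pool. Chance gives about 1 in 20. *Hs6st1* in WT CTAL reached 623 CPM in pool 22, against 424 to 479 in the other 4 pools (Dixon ratio 0.724). *Papss1* in cKO CTAL reached 181 CPM in pool 21, against 143 to 152 in the other 4 (Dixon ratio 0.763). Without pool 22 the log2 difference of *Hs6st1* between WT MTAL and WT CTAL was 0.39 (edgeR adjusted p = 0.0187) in place of 0.28 (adjusted p = 0.154). Groups of 3 were not examined.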

How the results depend on the processing

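No paired analysis was possible because no replicate number is shared between groups and no source used here ties a cKO pool to the WT pool of its litter. The fall of *Papss2* in cKO CTAL kept its direction and passed under all alternatives (log2 fold change -1.05 to -0.84). The count of members that passed there was 2 in place of 1 with the edgeR and DESeq2 likelihood ratio tests, and 1 to 1 with each pool left out. In MTAL the count of 4 became 2 with limma on log2(TPM + 1), 7 in 1 fit of all pools and 0 without the pools that hold *Xist*, with 2 to 3 when each pool was left out. Between WT segments the count of 5 became 3 with limma, with pool 1 of WT CTAL counted as cKO and without the pools that hold *Xist*, with 3 to 5 when each pool was left out. Between cKO segments the count of 2 became 1 with no filter, 0 with limma and up to 3 under the other alternatives, with 0 to 4 when each pool was left out. For the difference of genotype effects the count of 0 became 2 with either likelihood ratio test and 1 with no filter, with 0 to 1 when each pool was left out. The share of all genes that passed under each alternative is not given here, so these changes in count are not a result about the members alone. The causes were not tested, beyond the 1 WT MTAL pool left without the pools that hold *Xist*. The summed level of the PAPS synthases differed between cKO and WT by -0.08 in CTAL and -0.23 in MTAL on the log2 scale as TPM and by -0.27 and -0.60 as CPM. As CPM the difference in MTAL was -0.28 for the Chst genes, -0.47 for the cytosolic enzymes and -0.19 for the heparan sulfate genes, the last against 0.06 as TPM. The direction also turned from TPM to CPM for the cytosolic enzymes in CTAL (0.04 to -0.14) and for the Gal3st genes (0.09 to -0.04 in CTAL and 0.12 to -0.06 in MTAL). Over the single members that passed or whose value was at least 2 SE, no direction reversed. The filter on low counts left out 29 members that had counts.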
